A study of Mus musculus with 20 samples.

Results

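The semaphorin, plexin, neuropilin, Eph and ephrin genes are ligands and receptors that guide migrating cells and growing axons. They were followed here by RNA sequencing in melb-a cells, an immortal mouse line of melanoblasts, the migratory precursors of pigment cells. Members were all gene rows whose symbol had the form of a Sema3 to Sema7, plexin A to D, neuropilin, Eph or ephrin gene. This gave 53 of the 29956 gene rows: 20 semaphorins, 11 semaphorin receptors (plexins and neuropilins), 14 Eph receptors and 8 ephrins. All libraries came from the same line, labelled wild type, grown with serum, SCF and Fgf2. The 5 groups had 4 libraries each. Parental cells received no virus, and the 4 other groups were infected with lentivirus in polybrene and selected with puromycin. Their hairpins were aimed at luciferase (shLuciferase), at a scrambled sequence (shScramble), or at Hira in either of 2 versions (shHIRA I and shHIRA II). HIRA is a chaperone that places the histone variant H3.3 into chromatin outside DNA replication, and the design asks which transcripts change when it is knocked down. The 4 libraries of a group are called independent replicates, but nothing says that they came from separate infections, so p-values measure only the spread between these libraries.

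Semaphorins are secreted (Sema3) or membrane-bound (most others) and act through plexins, whose cytoplasmic part is a GTPase-activating protein for small GTPases. Most Sema3 ligands need a neuropilin as co-receptor to reach a plexin A. Eph receptors are receptor tyrosine kinases that bind ephrins on a neighbouring cell: EphA receptors mainly take the lipid-anchored ephrin-A ligands and EphB receptors the transmembrane ephrin-B ligands, and both partners signal. In chick and mouse embryos both systems set the routes of neural crest cells, and in chick ephrin-B ligands bear on the path that melanoblasts take under the skin.

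The promoters of 5 members are printed because these members carry the comparison described further on. In the main fit, each was called in 1 direction in all 4 contrasts of 1 shHIRA group with 1 control shRNA group. Sema6b and Sema6d kept this in 12 and 13 of the 20 fits without 1 library, and other fits ended more of it, as given below. Each printed promoter is the first RefSeq window listed for the gene (GRCm38.p6), read 5′ to 3′ along the gene's strand. It runs from 250 bases before to 50 bases after a transcript start. Sema6d, Plxnb2 and Sema6b have a second listed window, which is not printed. Capitals mark, on either strand, the 6-letter motifs CACGTG and CATGTG (E-boxes of the kind bound by the melanocyte factor MITF) and GGGCGG (the GC box bound by SP1).
Sema6d, chr2:124089719-124090018, plus strand: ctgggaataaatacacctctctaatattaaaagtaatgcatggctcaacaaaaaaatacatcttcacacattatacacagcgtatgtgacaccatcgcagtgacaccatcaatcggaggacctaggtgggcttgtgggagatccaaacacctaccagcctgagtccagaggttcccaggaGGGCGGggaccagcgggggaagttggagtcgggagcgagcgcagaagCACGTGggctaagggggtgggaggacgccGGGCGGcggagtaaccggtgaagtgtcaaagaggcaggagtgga
Plxnc1, chr10:94944796-94945095, minus strand: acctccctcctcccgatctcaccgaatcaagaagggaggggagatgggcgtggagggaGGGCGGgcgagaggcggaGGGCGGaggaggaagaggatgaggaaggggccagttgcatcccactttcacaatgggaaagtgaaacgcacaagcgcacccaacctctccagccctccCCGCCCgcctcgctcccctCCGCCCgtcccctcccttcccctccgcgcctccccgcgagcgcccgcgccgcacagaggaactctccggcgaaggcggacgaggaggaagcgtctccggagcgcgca
Plxnb2, chr15:89180739-89181038, minus strand: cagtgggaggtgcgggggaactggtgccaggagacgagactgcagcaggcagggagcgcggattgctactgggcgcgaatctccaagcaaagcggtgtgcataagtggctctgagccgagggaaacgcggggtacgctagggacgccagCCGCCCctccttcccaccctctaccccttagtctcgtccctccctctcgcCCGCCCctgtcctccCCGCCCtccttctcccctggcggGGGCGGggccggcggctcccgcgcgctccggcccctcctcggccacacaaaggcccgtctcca
Ephb3, chr16:21204545-21204844, plus strand: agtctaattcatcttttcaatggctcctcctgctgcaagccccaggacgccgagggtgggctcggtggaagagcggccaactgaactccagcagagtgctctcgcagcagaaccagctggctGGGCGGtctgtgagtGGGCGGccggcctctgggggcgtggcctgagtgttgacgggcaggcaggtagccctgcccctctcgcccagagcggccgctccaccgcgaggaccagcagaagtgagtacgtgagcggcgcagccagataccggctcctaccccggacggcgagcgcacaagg
Sema6b, chr17:56140294-56140593, minus strand: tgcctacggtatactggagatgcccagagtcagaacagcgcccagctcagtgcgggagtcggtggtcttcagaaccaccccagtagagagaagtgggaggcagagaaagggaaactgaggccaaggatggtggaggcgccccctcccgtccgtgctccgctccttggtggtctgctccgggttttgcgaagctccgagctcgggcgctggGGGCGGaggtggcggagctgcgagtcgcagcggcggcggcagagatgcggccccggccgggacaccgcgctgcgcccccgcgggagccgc
The printed Sema6d window held 1 CACGTG, starting 23 bases before the transcript start, and 2 GGGCGG. The second Sema6d window (chr2:124653331-124653630) held 0 CACGTG, 0 CATGTG and 0 GGGCGG. No E-box of these letters stood in the other 4 printed windows, which held GGGCGG in 4 (Plxnc1), 4 (Plxnb2), 2 (Ephb3) and 1 (Sema6b) places. Of the 53 members 47 had a window in RefSeq, 61 windows in all. CACGTG occurred in 6.56% of the members' windows, in 9.57% of those of all genes tested and in 7.15% of all 32851 windows. The shares for CATGTG were 8.2%, 8.91% and 14.2%, and those for GGGCGG 75.4%, 60.8% and 35.7%. Letters in a window are no evidence of binding. The 5 genes lie on different chromosomes of GRCm38: Sema6d on chromosome 2 (124089969 to 124667770, plus strand), Plxnc1 on chromosome 10 (94790866 to 94944835, minus strand), Plxnb2 on chromosome 15 (89155549 to 89180788, minus strand), Ephb3 on chromosome 16 (21204755 to 21223305, plus strand) and Sema6b on chromosome 17 (56123085 to 56140343, minus strand). All are protein-coding, and each printed window spans the start of the gene and the beginning of its transcribed part.

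Libraries held 15 to 20.7 M estimated counts (M, 1e6). Hira itself stood at 48.3% of the control shRNA level with shHIRA I (log2 fold change −1.05, adjusted p = 5.23e-05) and at 87.7% in those labelled shHIRA II (−0.19, adjusted p = 0.309), where a fall was not detectable. That group is therefore called the shHIRA II-labelled libraries throughout. In TMM-scaled counts per 1e6, Hira was 66.8 ± 4.13 in them, 78.2 ± 12.4 with shLuciferase and 74.1 ± 7.81 with shScramble (SD, n = 4 each). Parental libraries were at 88.1 ± 8.56, and their 81.9 to 101 did not overlap 63.2 to 70.9 in the shHIRA II-labelled libraries. This comparison with parental cells is given without a test. Of the melanocyte markers, Mlana, Tyrp1, Dct, Mitf, Kit and Pax3 were present in every library, while Sox10 had a median of 0.0758 TPM and Ednrb did not pass 0.0541 TPM. The summed melanocyte list ran from 2480 to 4290 TPM in the control shRNA libraries. It ran from 975 to 2990 TPM with shHIRA I and from 661 to 1060 TPM in the shHIRA II-labelled libraries. Of its 9 tested genes 7 were lower in the knockdown contrast defined below. Of all genes tested, 15.0% were lower and 14.1% higher in that contrast. The summed fibroblast list, mostly Dcn, ran from 13.0 to 30.6 TPM in the control shRNA libraries. It ran from 40.3 to 89.7 TPM with shHIRA I and from 3.14 to 6.24 TPM in the shHIRA II-labelled libraries. Of its 4 tested genes 1 was higher and 1 lower in the knockdown contrast. Of the Schwann cell list 4 of 5 genes were lower in the knockdown contrast, beside 15.0% of all genes. Its sum was 201 to 431 TPM in control shRNA libraries, 93.6 to 330 TPM with shHIRA I and 142 to 176 TPM in the shHIRA II-labelled libraries. The keratinocyte list summed to 3.42 to 7.99, 1.66 to 5.75 and 0.813 to 1.87 TPM in the same order, with Epcam at 0 in every library. The neuron list, almost all Tubb3, summed to 15.1 to 40.3, 16.3 to 37.3 and 49.8 to 57.6 TPM. Mitochondrially encoded transcripts took 6.43 to 9.96% of counts in control shRNA libraries, 1.23 to 9.58% with shHIRA I and 2.88 to 4.71% in the shHIRA II-labelled libraries. The part of these shifts in the results below was not tested, except where a value with the mitochondrial share as a covariate is given. In bulk RNA, fewer cells of a type and less RNA per cell cannot be told apart.

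Levels of different genes were compared as TPM, which is per transcript length. Over the 20 libraries together, Sema3b, a secreted semaphorin, had a mean of 124 TPM and the plexin Plxnb2, a receptor of Sema4 ligands, a mean of 104 TPM. Their order differed between groups. Sema3b was at 129 ± 22.1 TPM and Plxnb2 at 79.6 ± 8.02 TPM in parental cells (SD, n = 4), without overlap, and at 76.3 ± 14.8 and 135 ± 15.8 TPM in the shHIRA II-labelled libraries, where Plxnb2 was above Sema3b without overlap. Next in the mean over all libraries came Plxnd1 (50.5 TPM), Plxna1 (50.4 TPM), Nrp2 (39.1 TPM), Nrp1 (37.3 TPM), Plxnc1 (37.1 TPM) and Ephb4 (32.9 TPM). The ranges over libraries of these genes overlapped from Plxnd1 to Ephb4, so their order within that run was not fixed. Among the other ligand families Sema4c (13.6 TPM) and Efnb1 (10.6 TPM) led their families in the mean of every group, and Efna1 (12.8 TPM) led the ephrin-A ligands in every group other than shLuciferase, where Efna5 did. In the Sema6 family Sema6d led in the 3 groups without a Hira hairpin, with 14 ± 6.18 TPM in parental cells, 21.3 ± 4.81 TPM with shLuciferase and 18.3 ± 5.48 TPM with shScramble, beside 12.4 ± 2.49, 15.3 ± 2.51 and 12.9 ± 3.23 TPM for Sema6a. Their libraries overlapped in each of these groups. Sema6a led with shHIRA I and in the shHIRA II-labelled libraries, where Sema6d was at 1.27 ± 0.753 TPM and Sema6a at 10.6 ± 4.34 TPM. Among EphA receptors Epha2 led with 6.61 TPM. Sema5b and Sema7a, the leaders of their families, had 0.131 and 0.0951 TPM.

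**Figure D1:**
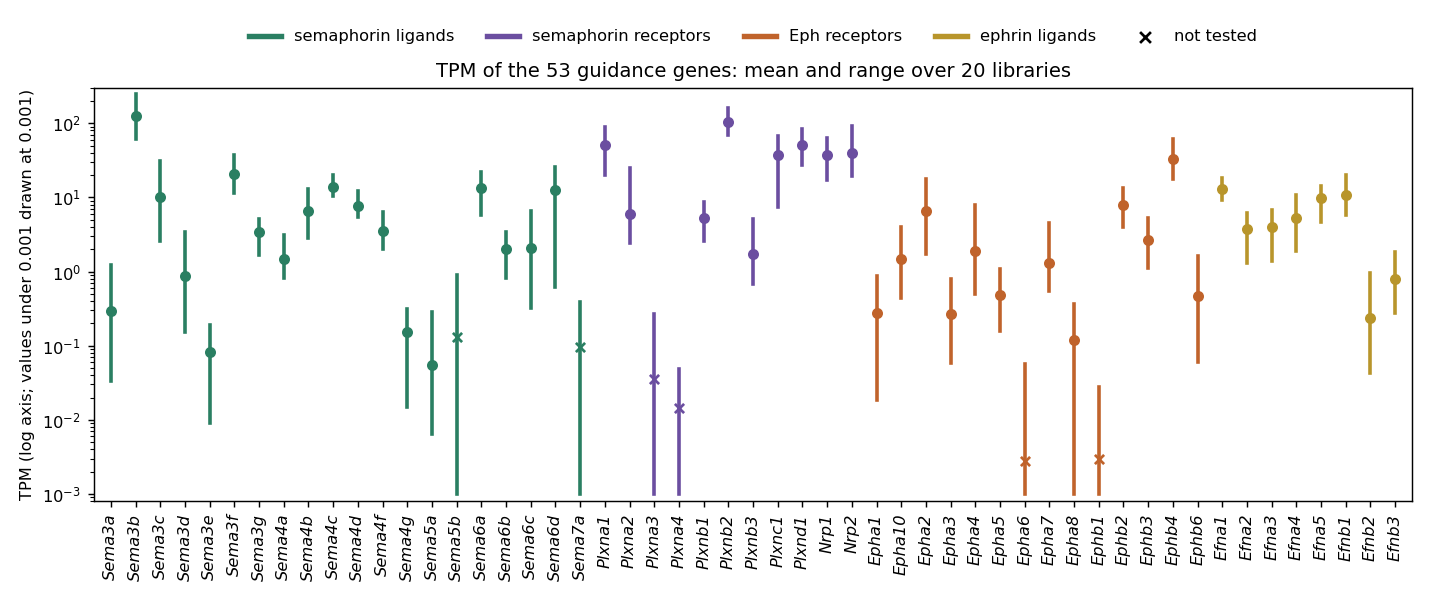
Mean TPM (points) and range over the 20 libraries (lines) of all 53 genes on a log axis, coloured by class, with crosses for the 6 genes not tested. Sema3b at 124 TPM and Plxnb2 at 103.5 TPM have the highest means over all groups, and most Eph receptors lie below 10 TPM.

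A member was tested when it had at least 10 counts in at least 4 libraries, which 47 of the 53 passed. Of these, 38 had 10 counts in all 20 libraries. The other 9 (Efnb2, Epha1, Epha3, Epha8, Ephb6, Sema3a, Sema3e, Sema4g and Sema5a) passed through a part of the libraries, so a group in which they were high could have carried them in. Epha6, Ephb1, Plxna3, Plxna4, Sema5b and Sema7a were not tested. Epha6 and Ephb1 never had more than 1 and 2 counts, Plxna4, Plxna3 and Sema7a reached at most 11, 16 and 17 counts, and Sema5b at most 50 counts. Plxnc1, the receptor of Sema7a, stood at 7.53 to 66.6 TPM in the same libraries, where that ligand did not exceed 0.392 TPM.

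Summed over a class, Eph receptor transcripts were 49.7 ± 7.45 TPM in parental cells (SD, n = 4 here and for the other groups), 52.1 ± 5.37 TPM with shLuciferase and 45.6 ± 6.96 TPM with shScramble. They were 86.4 ± 15.8 TPM with shHIRA I and 47.4 ± 8.35 TPM in the shHIRA II-labelled libraries. The shHIRA I libraries, at 67.3 to 103 TPM, lay above every library of the other groups. Ephb4 made up 60.1% of the sum with shHIRA I and 45.5% in the shHIRA II-labelled libraries, where Epha2 held 25.4% against 8.39% with shLuciferase and 7.67% with shScramble. Ephrins summed to 44.8 ± 4.72, 48.2 ± 10.1, 42.3 ± 5.34, 62.2 ± 9.47 and 38.5 ± 7.62 TPM in the same order of groups, and semaphorins to 216 ± 35.8, 254 ± 46.3, 211 ± 27.9, 274 ± 102 and 162 ± 28.6 TPM. Both ligand classes overlapped between shHIRA I and control shRNA libraries. Plexins and neuropilins together stood at 296 ± 48.1, 349 ± 36.6, 310.1 ± 28.1, 414 ± 91.5 and 285 ± 56.7 TPM. Within that sum Plxnb2 held 23.9% and 26.4% in the control shRNA groups, 35.1% with shHIRA I and 48.1% in the shHIRA II-labelled libraries. The share of Plxnc1 went the other way, from 17.1% and 17.3% to 5.38% and 3.79%. These sums are descriptions without a test.

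**Figure D2:**
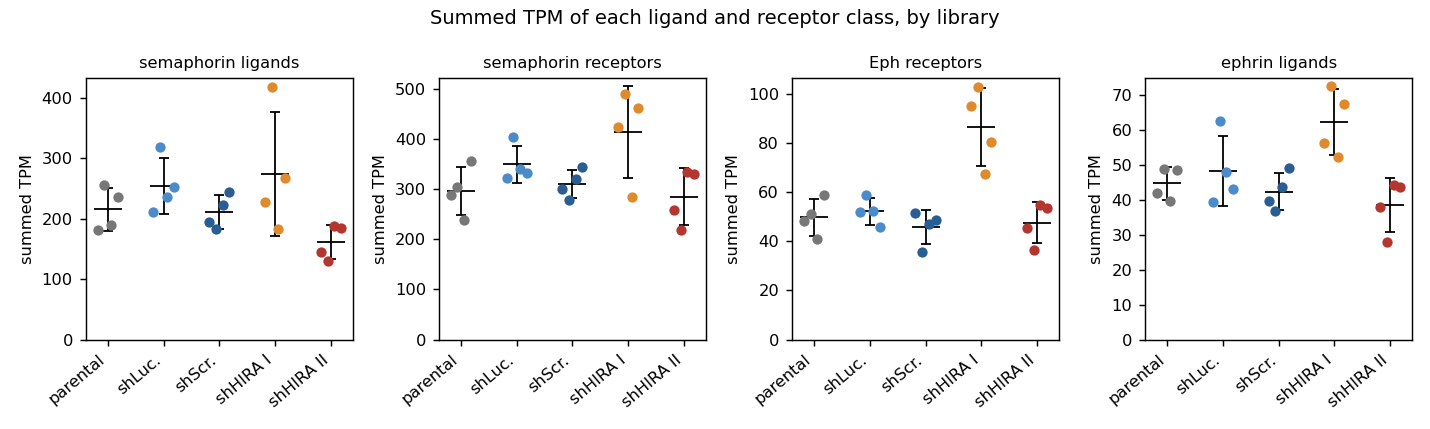
Summed TPM per library (points) of semaphorins, semaphorin receptors, Eph receptors and ephrins in the 5 groups, with group mean and SD (bars, n = 4); shLuc. is shLuciferase and shScr. is shScramble. The 4 shHIRA I points for Eph receptors lie between 67.3 and 102.8 TPM, above all others.

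Changes within a gene were tested with edgeR's quasi-likelihood F test on the counts of all 13639 genes that passed the same minimum, with Benjamini-Hochberg adjustment over all of them, and an adjusted p under 0.05 was a call. The knockdown contrast set the mean of both shHIRA groups against the mean of both control shRNA groups. It called 14 members higher and 7 lower of the 47, against a background of 29.1% of all genes called (14.1% higher and 15.0% lower). Among the 38 members with counts in every library 10 were higher and 6 lower. Higher were 6 of 12 tested Eph receptors, 5 of 18 semaphorins, 2 of 9 semaphorin receptors and 1 of 8 ephrins, and lower were 2 Eph receptors, 2 semaphorins and 3 semaphorin receptors. The median log2 fold change was 0.79 over Eph receptors, 0.26 over semaphorins, −0.13 over semaphorin receptors and 0.20 over all tested members, beside 0.033 over all genes. The Eph receptor median includes Epha1 (2.05), Epha8 (1.40), Ephb6 (1.29) and Epha3 (−1.09), which lacked 10 counts in some libraries. Groups in which such members were high could have carried them in, and the part of this in the medians was not tested. With the mitochondrial share as a covariate the calls were 13 higher and 2 lower (Plxnc1 and Sema6d), 13 of them shared with the fit without it. The share of all genes called with the covariate was not counted.

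By hairpin, shHIRA I called 15 members higher and 2 lower (background 19.5%; 10.7% higher and 8.77% lower). The libraries labelled shHIRA II called 10 higher and 14 lower (background 32.3%; 15.7% higher and 16.6% lower). Both contrasts use the same 8 control libraries. Called in 1 direction in all 4 contrasts of 1 shHIRA group and 1 control shRNA group, which share libraries, were 5 members (background 4.31%; 1.87% higher and 2.44% lower). These were Plxnb2, Ephb3 and Sema6b, which were higher, and Sema6d and Plxnc1, which were lower. Plxnb2, Ephb3 and Plxnc1 kept this in each of the 20 fits that left out 1 library. Sema6b lost it in 8 (without shLuciferase 3 or 4, shScramble 2, 3 or 4, or shHIRA I 1, 3 or 4) and Sema6d in 7 (the same libraries other than shLuciferase 4), so that 3 or 4 of the 5 remained in these 8 fits. With the mitochondrial share as a covariate Plxnb2 and Plxnc1 kept it and Ephb3, Sema6b and Sema6d lost it. Epha7, Sema3a, Sema3c and Sema3d were added in that fit, so that its count was 6. Without shLuciferase 2 the count was 9, with Epha1, Sema3a, Sema3c and Sema3d added. In fits on the 2 groups of each single contrast alone the count was 0. In CPM (counts per 1e6, TMM-scaled), the 8 shHIRA libraries did not overlap the 8 control shRNA libraries for 4 members, Plxnb2, Ephb3 and Sema6b above and Plxnc1 below (background 3.90%; 1.74% above and 2.16% below).

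Sema6d, a transmembrane semaphorin that binds plexin A1, had the lowest log2 fold change of the tested members in the knockdown contrast (−2.71 (SE 0.29, adjusted p = 2.97e-06)). Its CPM was 52.2, 78.8, 66.3 and 123 in the parental libraries 1 to 4, 80.0, 129, 137 and 108 with shLuciferase and 60.0, 105, 117 and 135 with shScramble. It was 29.6, 75.5, 21.1 and 46.7 with shHIRA I and 3.19, 4.84, 10.9 and 6.57 in the shHIRA II-labelled libraries. The latter lay below every other library, while shHIRA I replicate 2 lay within the control range. Against the control shRNA groups the log2 fold change was −1.33 (SE 0.35, adjusted p = 0.0112) with shHIRA I and −4.09 (SE 0.42, adjusted p = 2.48e-06) for the shHIRA II-labelled libraries, which is 17.0-fold lower. The difference between the hairpins was −2.76 (SE 0.42, adjusted p = 0.00021). Against parental cells the value with shHIRA I was −0.89 and did not pass (adjusted p = 0.125).

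Plxnc1, the sole plexin C, fell with shHIRA I and in the shHIRA II-labelled libraries. Its CPM was 221, 261, 233 and 310.4 in parental libraries, 257, 405, 417 and 415 with shLuciferase and 226, 409, 390.2 and 412 with shScramble. It was 68.7, 212, 80.2 and 183 with shHIRA I and 45.8, 67.9, 87.7 and 60.5 in the shHIRA II-labelled libraries. All 8 shHIRA libraries lay below all 12 others, although replicate 1 of each control shRNA group was well under its 3 companions. The log2 fold change was −1.96 (SE 0.23, adjusted p = 6.26e-06) in the knockdown contrast, −1.43 with shHIRA I and −2.48 for the shHIRA II-labelled libraries. The hairpins differed by −1.06 (adjusted p = 0.021), a call that ended without shHIRA I 2 or 4 or without shHIRA II 1 or 4 (−0.99 to −0.76, adjusted p = 0.0595 to 0.0984). It also ended with the mitochondrial share as covariate (−0.81, adjusted p = 0.0672). A predicted gene, Gm48718, overlaps Plxnc1 exons on the same strand and has no row of its own here.

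Plxnb2, a plexin for Sema4 ligands with roles in neural and epithelial tissue, rose with shHIRA I and in the shHIRA II-labelled libraries. Its CPM was 419.5, 321, 328 and 337 in parental libraries, 337, 351, 309.7 and 340.0 with shLuciferase and 362, 368, 342 and 324 with shScramble. It was 573, 439, 649 and 511 with shHIRA I and 512, 545, 493 and 569 in the shHIRA II-labelled libraries. Every shHIRA library exceeded every other library, the closest pair being 439 (shHIRA I 2) and 419.5 (parental 1). Against the control shRNA groups it rose by 0.67 on the log2 scale with shHIRA I and by 0.63 in the shHIRA II-labelled libraries, the knockdown contrast gave 0.65 (SE 0.088, adjusted p = 3.28e-05), and the hairpins differed by −0.035 (SE 0.12, adjusted p = 0.877).

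Ephb3, a receptor of ephrin-B ligands, had 6.70, 6.49, 4.07 and 5.18 CPM with shLuciferase, 6.75, 3.98, 7.19 and 4.68 with shScramble and 9.47, 7.82, 8.03 and 6.42 in parental libraries. It had 14.9, 10.4, 18.5 and 7.92 CPM with shHIRA I and 11.3, 11.1, 8.57 and 13 in the shHIRA II-labelled libraries. The shHIRA libraries lay above the control shRNA libraries but overlapped the parental ones. The log2 fold change was 1.08 (SE 0.19, adjusted p = 0.000337) against the control shRNA groups and 0.59 (adjusted p = 0.0746) against parental cells, where it was not called (background for both shHIRA groups against parental cells 24.4%; 12.5% higher and 11.9% lower). With the mitochondrial share as a covariate its value in the shHIRA II-labelled libraries was 0.72 (adjusted p = 0.0852). Sema6b, a transmembrane ligand of plexin A receptors, had 5.10, 5.15, 3.0 and 3.93 CPM with shLuciferase, 5.77, 2.78, 5.22 and 4.49 with shScramble and 6.21, 5.78, 5.59 and 5.19 in parental libraries. It had 7.68, 6.46, 8.14 and 8.36 CPM with shHIRA I and 9.38, 6.05, 9.23 and 8.42 in the shHIRA II-labelled libraries. The same overlap with parental libraries held, and the log2 fold change was 0.85 (SE 0.17, adjusted p = 0.000955) against the control shRNA groups and 0.48 (adjusted p = 0.0973) against parental cells.

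**Figure D3:**
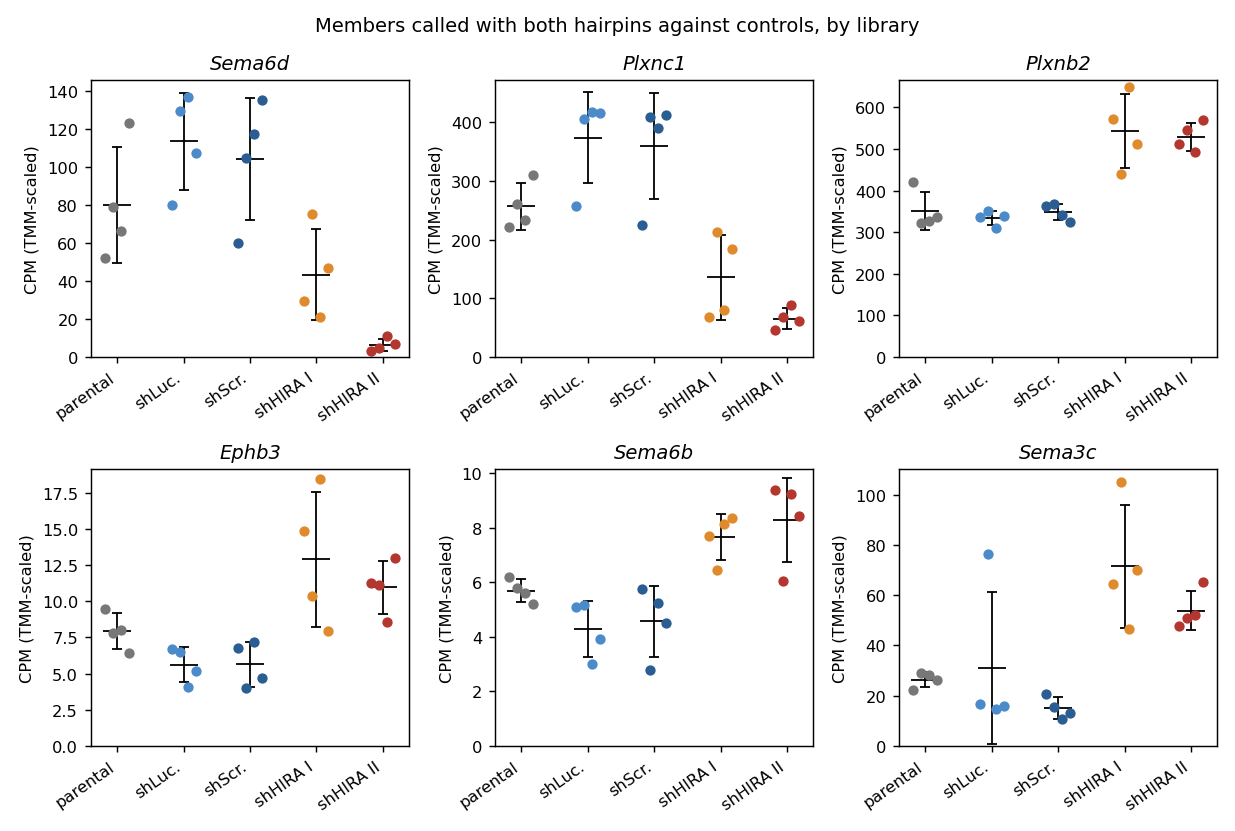
CPM per library (points), with group mean and SD (bars, n = 4), of 6 members called for shHIRA I and for the shHIRA II-labelled libraries against the control shRNA groups; shLuc. is shLuciferase and shScr. is shScramble. Sema6d spans 3.19 to 10.9 CPM in the shHIRA II-labelled libraries, and shLuciferase replicate 2 stands apart for Sema3c at 76.3 CPM.

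Among the secreted semaphorins Sema3a, Sema3c and Sema3d rose in the knockdown contrast. Sema3c, a ligand of neuropilins known from outflow tract and neural crest development, had 22.1, 28.9, 28.2 and 26.1 CPM in parental libraries, 16.5, 76.3, 14.6 and 15.8 with shLuciferase and 20.7, 15.4, 10.7 and 12.9 with shScramble. It had 64.4, 105, 46.5 and 70.0 CPM with shHIRA I and 47.5, 50.9, 51.9 and 65.2 in the shHIRA II-labelled libraries. Only shLuciferase 2 among the control shRNA libraries reached the shHIRA range, and all parental libraries lay below it. In the knockdown contrast it rose by 1.53 (SE 0.30, adjusted p = 0.000812). Sema3d had 1.60, 11.5, 1.22 and 1.31 CPM with shLuciferase and 2.01, 0.965, 1.03 and 1.68 with shScramble, and 2.58, 5.17, 4.20 and 4.78 in parental libraries. It had 6.48, 16.5, 1.98 and 10.7 CPM with shHIRA I and 4.15, 3.34, 6.41 and 6.46 in the shHIRA II-labelled libraries, so that shHIRA and parental libraries overlapped. Its log2 fold change of 1.51 (SE 0.46, adjusted p = 0.0199) became 2.26 without shLuciferase 2, and against parental cells it was 0.69 (adjusted p = 0.413). With shHIRA I alone the value was 1.91, which became 2.67 without shLuciferase 2 and lost its call without shHIRA I 2 (1.44, adjusted p = 0.0754).

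Sema3a, the ligand that repels axons through Nrp1, stayed low, at 0.153 to 1.44 CPM with shLuciferase, 0.125 to 0.511 with shScramble, 0.889 to 4.18 with shHIRA I and 0.806 to 2.02 in the shHIRA II-labelled libraries. Its log2 fold change was 2.35 (SE 0.50, adjusted p = 0.00168), and for the shHIRA II-labelled libraries alone (1.86) the call ended without replicate 4 (1.64, adjusted p = 0.0587). Sema6c, a transmembrane semaphorin, was higher by 0.97 (SE 0.36, adjusted p = 0.0467), but this call ended in 13 of the 20 fits without 1 library (parental 2, 3 or 4, shLuciferase 1, 3 or 4, shScramble 1, 2 or 3, shHIRA I 2 or 4, shHIRA II 2 or 4; 0.84 to 0.99, adjusted p = 0.0507 to 0.0912). With shHIRA I it was 1.48 (adjusted p = 0.0555 without shHIRA I 2, at 1.25). Sema4c, a ligand of Plxnb2, was lower, at −0.27 (SE 0.096, adjusted p = 0.0411), and that call ended in 10 fits (without shLuciferase 2 or 4, shScramble 1, 2 or 4, shHIRA I 1, 2 or 4, or shHIRA II 1 or 3; −0.27 to −0.21, adjusted p = 0.0542 to 0.0935). For the shHIRA II-labelled libraries alone Sema4c was −0.37, which lost its call without replicate 1 (−0.31) or 3 (−0.33).

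Sema3a, Sema3c, Sema3d and Sema3e share a stretch of chromosome 5. Sema3d occupies chromosome 5 (12383385 to 12588948, plus strand), Sema3a chromosome 5 (13125414 to 13602565, plus strand), Sema3e chromosome 5 (14025276 to 14256689, plus strand) and Sema3c chromosome 5 (17574281 to 17730268, plus strand). Sema3e, the ligand of Plxnd1, was not called in any contrast and stood at 0.0814 TPM on average, with a knockdown log2 fold change of 0.12 (adjusted p = 0.833). Sema3b and Sema3f sit near each other on chromosome 9 (107597674 to 107609229, minus strand) and chromosome 9 (107681500 to 107710475, minus strand). Both were called lower in the shHIRA II-labelled libraries, Sema3b at −0.86 (SE 0.18, adjusted p = 0.00153) and Sema3f at −0.72 (SE 0.18, adjusted p = 0.00419), and neither was called with shHIRA I (0.097 and 0.064). Against parental cells the shHIRA II-labelled libraries were at −0.93 for Sema3b (adjusted p = 0.00243) but at −0.19 for Sema3f (adjusted p = 0.504). Sema3f spanned 24.6 to 32.8 CPM in them, 26.5 to 36.2 in parental libraries and 37.6 to 70.7 in control shRNA libraries. Sema3b had 248, 375, 287 and 333 CPM with shLuciferase, 225, 267, 305 and 327 with shScramble, 205, 476, 264 and 319 with shHIRA I and 142, 155, 180.4 and 172 in the shHIRA II-labelled libraries, whose 4 values lay below all others. Sema4a, a ligand with immune and retinal roles, was higher in the shHIRA II-labelled libraries by 0.77 (SE 0.25, adjusted p = 0.0245). That call ended without replicate 2 (0.70) or 4 (0.73) of that group (adjusted p = 0.0638 to 0.077).

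Of the receptors for secreted semaphorins, Plxna2 rose by 0.87 (SE 0.24, adjusted p = 0.00977) in the knockdown contrast, with 1.80 (SE 0.28, adjusted p = 0.000162) for shHIRA I and −0.062 (adjusted p = 0.894) for the shHIRA II-labelled libraries. Its CPM was 22.8, 64.2, 23.7 and 33.9 with shLuciferase, 27.9, 31.3, 25.5 and 26.6 with shScramble, 58.3, 177, 80.7 and 126 with shHIRA I and 21.6, 29.7, 39.8 and 30.5 in the shHIRA II-labelled libraries. The latter overlapped the control shRNA libraries, shLuciferase 2 lay above shHIRA I 1, and the difference between the hairpins was −1.86 (SE 0.34, adjusted p = 0.000963). Nrp1, the co-receptor for Sema3a and for VEGF, was lower in the shHIRA II-labelled libraries, with a log2 fold change of −0.93 (SE 0.20, adjusted p = 0.00172), and at 0.049 with shHIRA I. Its CPM was 83.9, 192, 135 and 143 with shLuciferase, 78.7, 135, 134 and 157 with shScramble, 136, 148, 108 and 154 with shHIRA I and 67.7, 61.1, 74.6 and 74.7 in the shHIRA II-labelled libraries, all 4 of which lay below the rest. In the knockdown contrast its −0.44 (SE 0.16, adjusted p = 0.0419) lost the call in 13 fits without 1 library (parental 2, shLuciferase 2, 3 or 4, shScramble 2, 3 or 4, shHIRA I 1 or 3, or any of shHIRA II; −0.44 to −0.34, adjusted p = 0.0506 to 0.1). With the mitochondrial share as a covariate the value in the shHIRA II-labelled libraries was −0.71 (adjusted p = 0.0514).

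Nrp2, the co-receptor for Sema3f, was higher with shHIRA I by 0.67 (SE 0.22, adjusted p = 0.0377), a call that ended without shLuciferase 1, 3 or 4, shScramble 1 or 2, or shHIRA I 2 or 4 (0.46 to 0.67, adjusted p = 0.0546 to 0.159). Plxnd1, best known from blood vessels, was lower, at −0.41 (SE 0.14, adjusted p = 0.0398), in the knockdown contrast. This call ended in 11 fits (without shLuciferase 1 or 3, shScramble 1, 3 or 4, shHIRA I 1, 2 or 3, or shHIRA II 1, 2 or 4; −0.42 to −0.32, adjusted p = 0.0551 to 0.0914). For the shHIRA II-labelled libraries it was −0.58, not called without replicate 1 (−0.53) or 2 (−0.49). Plxnb3 was lower in the shHIRA II-labelled libraries, at −0.96 (SE 0.34, adjusted p = 0.0366). That call ended without shLuciferase 2, where Plxnb3 stood at 16.7 CPM, and without shScramble 3 or 4 or shHIRA II 1, 2 or 4 (−0.96 to −0.66, adjusted p = 0.0516 to 0.109), and against parental cells the value was 0.11.

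Eph receptors were the class with the largest share of members called higher in the knockdown contrast, 6 of 12, although 3 of the 6 (Epha1, Epha8 and Ephb6) lacked 10 counts in some libraries. With shHIRA I the class had 6 higher and 0 lower (median log2 fold change 1.01, background 10.7% higher and 8.77% lower). In the shHIRA II-labelled libraries it had 4 higher and 3 lower (median −0.0084, background 15.7% higher and 16.6% lower). The class median was thus raised with shHIRA I only. Epha2, a receptor of ephrin-A1 that is common in epithelia and melanoma, had 11.3, 7.71, 6.74 and 12.1 CPM in parental libraries, 17.5, 14.9, 10.1 and 9.96 with shLuciferase and 23.9, 5.91, 7.61 and 8.17 with shScramble. It had 47, 25.8, 15 and 23.1 CPM with shHIRA I and 40.0, 29.7, 33.5 and 36 in the shHIRA II-labelled libraries. The libraries labelled shHIRA II lay above every library without a Hira hairpin, while shHIRA I 3 and 4 fell below shScramble 1. In the knockdown contrast it rose by 1.35 (SE 0.27, adjusted p = 0.00126), and with shHIRA I alone the 1.18 lost its call without shHIRA I 1 (0.80, adjusted p = 0.107).

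Epha4, which binds ephrins of both classes, rose with shHIRA I. Its CPM was 3.56, 8.17, 6.31 and 5.18 with shLuciferase, 3.15, 2.50, 3.47 and 2.25 with shScramble, 18.6, 29.2, 10.9 and 23.6 with shHIRA I and 3.01, 2.48, 3.39 and 5.61 in the shHIRA II-labelled libraries. All shHIRA I libraries exceeded all others, and the shHIRA II-labelled libraries lay among the controls. The log2 fold change was 2.34 (SE 0.27, adjusted p = 1.22e-05) with shHIRA I, −0.17 for the shHIRA II-labelled libraries and −2.50 (SE 0.35, adjusted p = 9.73e-05) between them. In the knockdown contrast it was 1.09, against 0.52 (adjusted p = 0.214) with parental cells as the reference.

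Epha1, Epha8 and Ephb6 were called higher from low counts. Epha1 was at 0.0509 to 1.09 CPM with shLuciferase, 0.114 to 0.310 with shScramble, 1.24 to 2.14 with shHIRA I and 0.718 to 1.46 in the shHIRA II-labelled libraries, and its log2 fold change was 2.05 (SE 0.43, adjusted p = 0.00161). Exons of Zyx, the gene of the focal adhesion protein zyxin, overlap those of Epha1 on the opposite strand. Zyx stood at 158 CPM and was itself higher by 1.14 (adjusted p = 0.000164), and since the strand setting of the counting is not given, the Epha1 value is uncertain. Ephb6, a receptor without kinase activity, was at 2.08 to 3.03 CPM with shHIRA I, above 0.148 to 1.22 with shLuciferase, 0.170 to 0.724 with shScramble and 0.173 to 1.02 in the shHIRA II-labelled libraries. Its knockdown value of 1.29 (SE 0.46, adjusted p = 0.0429) lost the call in 11 fits (without parental 3, shLuciferase 1, 2 or 4, shScramble 1, 2 or 4, shHIRA I 1 or 3, or shHIRA II 1 or 4; 1.04 to 1.30, adjusted p = 0.0515 to 0.119), while the shHIRA I value of 2.43 (SE 0.52, adjusted p = 0.00274) kept its call in all 20.

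Epha8 had 5 to 25 counts per library with shHIRA I and 8 to 24 in the shHIRA II-labelled libraries, against 1 to 11 in the control shRNA libraries and 0 to 1 in parental cells. Its knockdown log2 fold change of 1.40 (SE 0.47, adjusted p = 0.0325) ended as a call in 7 fits (without shLuciferase 2 or 3, shScramble 4, shHIRA I 1 or 3, or shHIRA II 1 or 4; 1.22 to 1.41, adjusted p = 0.0522 to 0.0733). So did its call in the shHIRA II-labelled libraries (1.54; without shLuciferase 2 or 3, shScramble 2 or 4, or shHIRA II 1, 2 or 4; 1.34 to 1.57, adjusted p = 0.0517 to 0.121).

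The Eph receptors called lower were Epha10 and Epha3. Epha10, which lacks kinase activity, had 6.88, 5.64, 5.80 and 5.47 CPM with shLuciferase, 4.30, 5.22, 4.86 and 5.93 with shScramble, 2.40, 11.5, 3.01 and 3.81 with shHIRA I and 1.65, 1.67, 2.51 and 1.74 in the shHIRA II-labelled libraries. The latter lay below all control shRNA libraries, and shHIRA I 2 lay above them. Its log2 fold change of −0.81 (SE 0.27, adjusted p = 0.0302) ended as a call in 7 fits (without shScramble 4, shHIRA I 1, 3 or 4, or shHIRA II 1, 2 or 4; −0.78 to −0.68, adjusted p = 0.05 to 0.0585). For the shHIRA II-labelled libraries it was −1.53 (SE 0.35, adjusted p = 0.00293). Epha3, a receptor of ephrin-A5, was at 2.28 ± 1.16 CPM with shLuciferase, 1.65 ± 0.733 with shScramble, 1.32 ± 0.732 with shHIRA I and 0.618 ± 0.182 in the shHIRA II-labelled libraries (SD, n = 4 each). Its knockdown value of −1.09 (SE 0.36, adjusted p = 0.0297) ended as a call without shLuciferase 2, shScramble 2 or 4, or shHIRA II 1 or 4 (−1.05 to −0.88, adjusted p = 0.0546 to 0.0747). It was 0.067 against parental cells, which had 0.870 ± 0.392 CPM. In the shHIRA II-labelled libraries it was −1.63 (SE 0.47, adjusted p = 0.0131).

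Efna1, the main ligand of Epha2, was the sole ephrin called in the knockdown contrast, higher by 0.36 (SE 0.11, adjusted p = 0.0174). Its CPM was 11, 15.5, 11.8 and 12.8 with shLuciferase, 13.3, 14.2, 14.4 and 13.8 with shScramble, 18.1, 16.9, 24.2 and 20.1 with shHIRA I and 15.5, 12.3, 14.6 and 16.6 in the shHIRA II-labelled libraries. The shHIRA I libraries were above every control library, and those labelled shHIRA II overlapped them. Efna2, Efna3 and Efna4, lipid-anchored like Efna1, were lower in the shHIRA II-labelled libraries, at −1.21 (SE 0.23, adjusted p = 0.000728), −1.04 (SE 0.27, adjusted p = 0.00643) and −0.97 (SE 0.27, adjusted p = 0.0103). The Efna4 call ended without shHIRA II 1 (−0.81, adjusted p = 0.0512). Efna1, Efna3 and Efna4 lie close together on chromosome 3 (89271733 to 89281142, minus strand), chromosome 3 (89313899 to 89322965, minus strand) and chromosome 3 (89333390 to 89338028, minus strand). Efnb3, a ligand of the midline of the nervous system, was higher in the shHIRA II-labelled libraries by 0.98 (SE 0.35, adjusted p = 0.0398), a call that ended in 9 fits (without shLuciferase 2, 3 or 4, shScramble 2, 3 or 4, or shHIRA II 1, 3 or 4; 0.87 to 1.01, adjusted p = 0.0546 to 0.123).

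**Figure D4:**
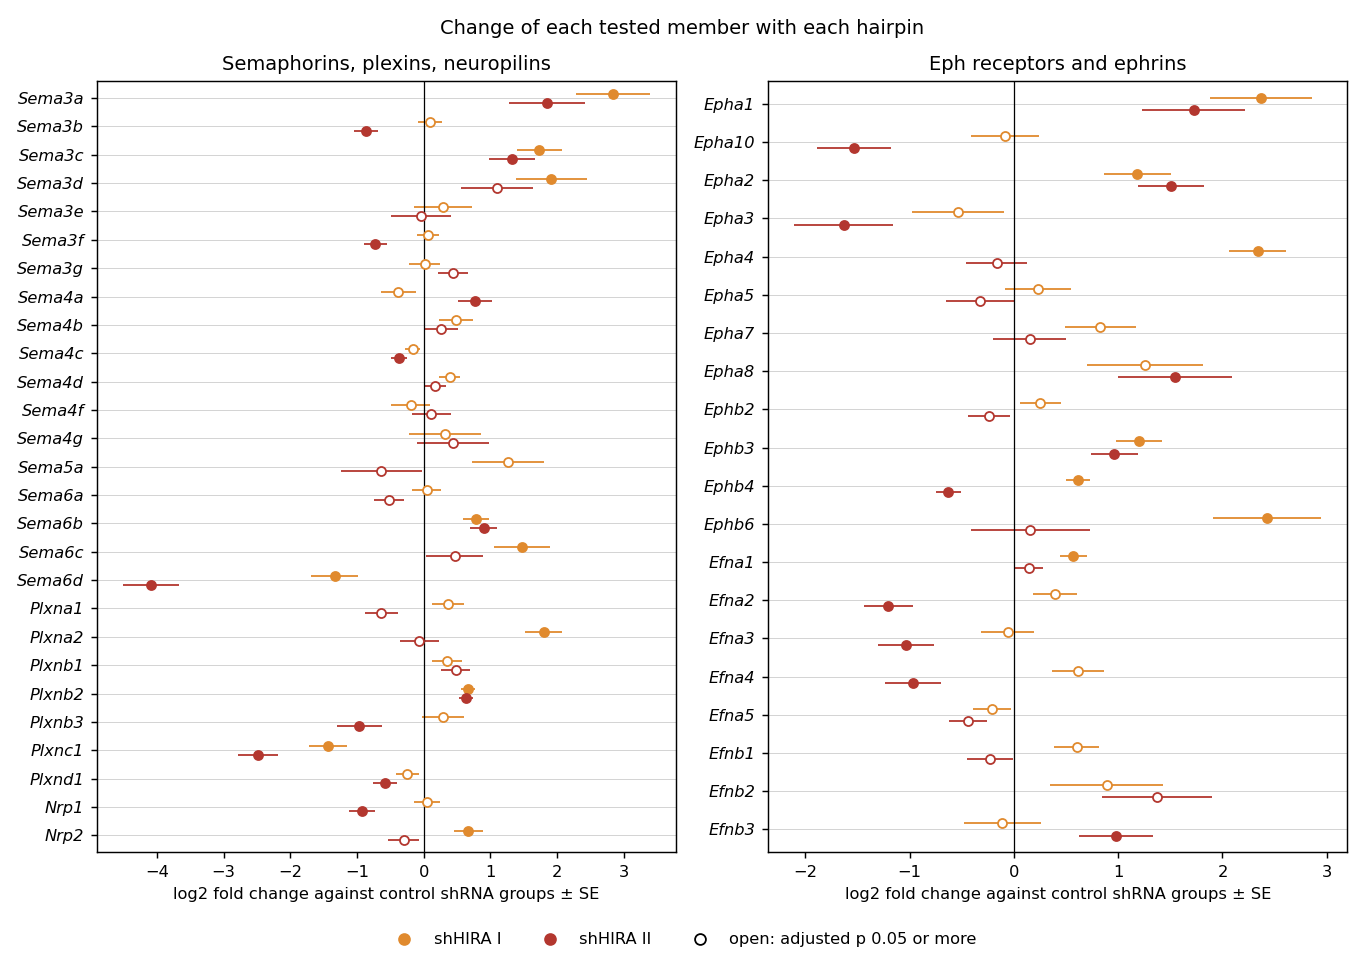
Log2 fold change ± SE of the 47 tested members with shHIRA I (orange) and in the shHIRA II-labelled libraries (red) against the control shRNA groups; filled points are called and open ones are not. Sema6d reaches −4.09 in the shHIRA II-labelled libraries, and Ephb4 lies on opposite sides of 0 at 0.61 and −0.63.

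Between the hairpins 1 member was higher and 17 were lower in the shHIRA II-labelled libraries than with shHIRA I (background 20.9%; 8.56% higher and 12.4% lower). Lower were 6 of 9 semaphorin receptors, 4 of 12 Eph receptors, 4 of 8 ephrins and 3 of 18 semaphorins. A fit on these 2 groups alone, for which the share of all genes was not counted, called 10 members, all lower. Ephb4, the receptor of ephrin-B2 and the most abundant Eph receptor, was called in opposite directions. Its CPM was 121, 101, 102 and 126 in parental libraries, 103, 133, 121 and 108 with shLuciferase and 107, 99.5, 126 and 123 with shScramble. It was 152, 190.1, 204 and 158 with shHIRA I, above all of these, and 65.1, 73.5, 85.9 and 72.6 in the shHIRA II-labelled libraries, below all of these. The log2 fold change against the control shRNA groups was 0.61 (SE 0.12, adjusted p = 0.000958) and −0.63 (SE 0.12, adjusted p = 0.000715), and the hairpins differed by −1.24 (SE 0.14, adjusted p = 1.74e-05). The knockdown contrast, which averages them, gave −0.0085 (adjusted p = 0.958). Zan overlaps Ephb4 on the opposite strand and stood at 3.99 CPM. Efnb2, the partner ligand, had a mean of 0.238 TPM and was called only in the single contrast of the shHIRA II-labelled libraries with shScramble (1.84, adjusted p = 0.0477).

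The remaining differences between the hairpins were −2.50 for Epha4, −2.27 for Ephb6, −1.86 for Plxna2, −1.60 for Efna2, −1.58 for Efna4 and −0.97 for Nrp1. Sema3b differed by −0.96 and Sema3f by −0.79, while Sema4a was the member higher in the shHIRA II-labelled libraries, by 1.15. Several of these calls ended without 1 library. Without shHIRA I 2 the Epha10 difference of −1.45 became −0.70 (adjusted p = 0.0866) and the Nrp2 difference of −0.97 became −0.76 (adjusted p = 0.0555). Ephb6 lost its call without shHIRA II 2 (−1.98) or 3 (−2.02; adjusted p = 0.0549 to 0.0561). Efna3 (−0.98) lost it without shHIRA I 2 or shHIRA II 1, 2 or 4 (−0.99 to −0.78), Efnb1 (−0.83) without shHIRA I 2 or 4 or shHIRA II 1 or 2 (−0.82 to −0.73), Plxna1 (−1.0) without shHIRA I 4 or shHIRA II 1 or 2 (−0.87 to −0.83), and Plxnb3 (−1.25) without shHIRA I 2 or shHIRA II 1, 2 or 4 (−1.24 to −0.84). Hira was 0.86 higher on the log2 scale in the shHIRA II-labelled libraries than with shHIRA I (adjusted p = 0.000984), and the mitochondrial share and fibroblast list differed between them as given above.

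**Figure D5:**
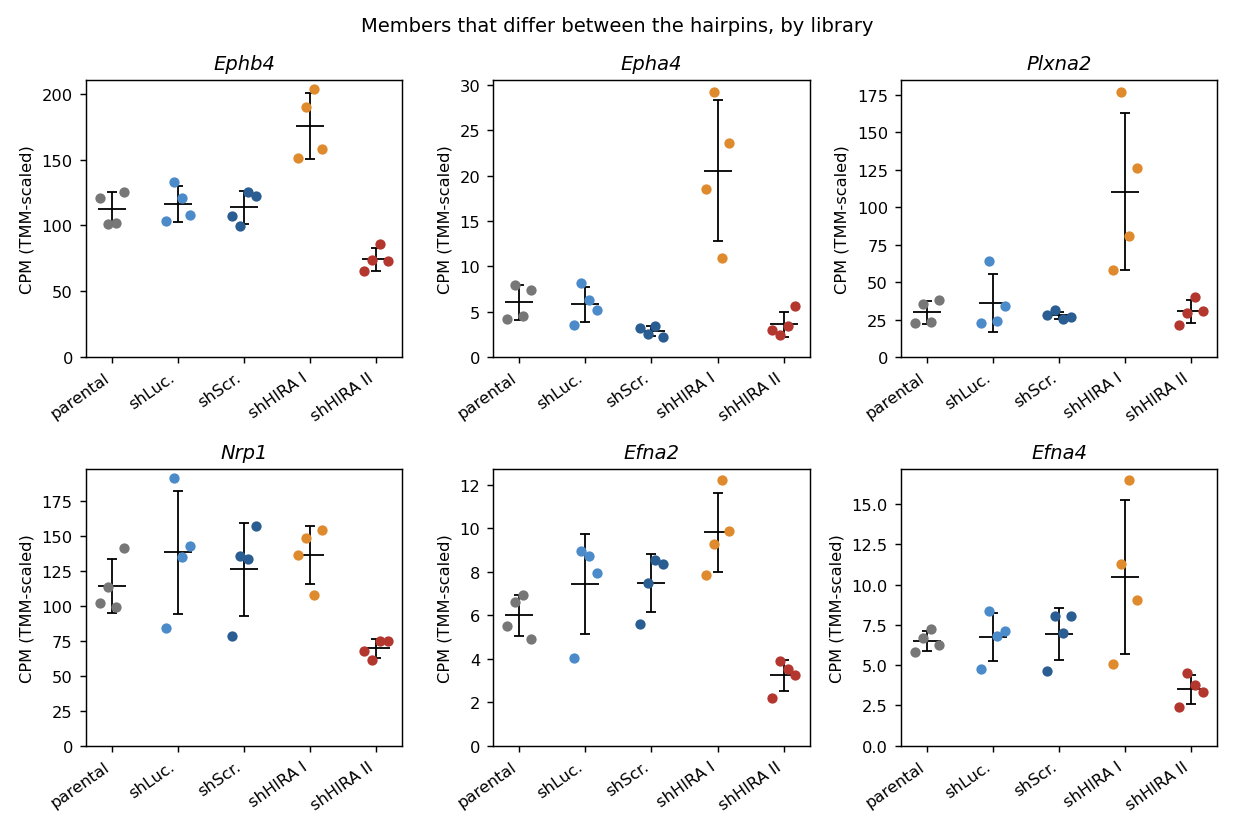
CPM per library (points), with group mean and SD (bars, n = 4), of 6 members that differ between the hairpins; shLuc. is shLuciferase and shScr. is shScramble. Ephb4 spans 152 to 204 CPM with shHIRA I and 65.1 to 85.9 CPM in the shHIRA II-labelled libraries, with all other groups between.

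The mitochondrial share was lower in most shHIRA libraries, and adding it to the fit ended 8 of the 21 knockdown calls. These were Efna1 (0.27), Epha10 (−0.40), Epha3 (−0.34), Epha8 (0.60), Ephb6 (1.11), Nrp1 (−0.26), Plxnd1 (−0.50) and Sema4c (−0.33), with adjusted p from 0.0646 (Sema4c) to 0.608 (Epha3). Of the calls in the shHIRA II-labelled libraries it ended, beside those of Ephb3 and Nrp1, those of Sema3b (−0.54, adjusted p = 0.0629), Efna3 (−0.76), Epha10 (−0.92), Epha3 (−0.58), Epha8 (0.65), Plxnb3 (−0.20), Efnb3 (0.99) and Sema4a (0.55). None of the 17 calls with shHIRA I ended. Between the hairpins the calls of Efna3 (−0.84, adjusted p = 0.0519) and Plxnb3 (−0.88, adjusted p = 0.0561) ended beside that of Plxnc1. The same fit also added calls. In the knockdown contrast these were Epha7 and Plxnb1, both higher. With shHIRA I they were Efnb1, Epha7 and Sema4d, and in the shHIRA II-labelled libraries Epha7 and Sema3d, all higher. Between the hairpins Efna1 was added, lower in the shHIRA II-labelled libraries.

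No member was called between shScramble and shLuciferase by edgeR (background 0%, and 0 of 47 also by DESeq2, with 4 of all genes, and by limma). At an unadjusted p under 0.05 there were 3 members and 172 genes. The mean of the control shRNA groups against parental cells called 1 member higher and 1 lower (background 3.64%; 2.05% higher and 1.59% lower). Ephb2, an ephrin-B receptor, was lower after transduction, at −0.73 (SE 0.19, adjusted p = 0.0423). It had 47, 48.9, 39.4 and 57.4 CPM in parental libraries, 35.7, 27.9, 34.1 and 24.7 with shLuciferase and 32.1, 21.4, 22.5 and 34.3 with shScramble, without overlap. The call ended in 10 fits without 1 library (any parental library, shLuciferase 2, 3 or 4, shScramble 2 or 3, or shHIRA II 3; −0.82 to −0.64, adjusted p = 0.0513 to 0.154). Epha8 was called higher, from the counts given above. Its fitted value has no meaning as a fold, since 3 parental libraries were at 0, and the call ended without any of these 3 (adjusted p = 0.0716 to 0.0834).

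With parental cells as the reference, 11 of the 21 members called in the knockdown contrast were not called. Beside Ephb3, Sema6b, Sema3d, Epha4 and Epha3, given above, these were Efna1 (0.22), Ephb6 (0.39), Nrp1 (−0.23), Plxnd1 (−0.25), Sema4c (−0.16) and Sema6c (0.70), with adjusted p from 0.249 (Efna1) to 0.659 (Ephb6).

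Not called in the knockdown contrast, for either Hira hairpin against the control shRNA groups, between the Hira hairpins, between the control hairpins or after transduction were Efna5, Efnb2, Epha5, Epha7, Plxnb1, Sema3e, Sema3g, Sema4b, Sema4d, Sema4f, Sema4g, Sema5a and Sema6a. Their knockdown log2 fold changes ran from −0.33 (Efna5, SE 0.15) to 1.13 (Efnb2, SE 0.45), and both ends missed the threshold. Against parental cells, however, Epha5 (1.19, adjusted p = 0.0164) and Sema4b (0.79, adjusted p = 0.0371) were called higher in the mean of both shHIRA groups, and Sema5a was called higher with shHIRA I (2.36, adjusted p = 0.0248). Sema5a had 10 counts in 3 shHIRA I and 0 parental libraries, so shHIRA I could have carried it into the test. Its mean was 0.0551 TPM, and 0.261 to 2.4 CPM with shHIRA I overlapped 0.0518 to 0.36 in parental libraries. Plxnb1 and its ligand Sema4d were at 0.42 (adjusted p = 0.0955) and 0.28 (adjusted p = 0.105). With the mitochondrial share as a covariate Epha7, Plxnb1 and Sema4d gained the calls given above.

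Genes known to act beside these ligands and receptors were taken from 2 further lists. Of 49 signalling partners 42 were tested, and 11 were higher and 7 lower in the knockdown contrast (median log2 fold change 0.18, beside 0.033 over all genes, of which 14.1% were higher and 15.0% lower). Ngef (ephexin, a signalling protein bound by EphA receptors) had the lowest adjusted p of the list, at −2.0 (adjusted p = 6.44e-07), and Chn1 (chimaerin, a Rac inactivator downstream of Epha4) was higher by 1.46 (adjusted p = 4.36e-05). Lower were also Arhgef11, which is bound by plexin B receptors (−1.03), Met, a kinase that pairs with Plxnb1 (−1.25), Adam10, a protease that cleaves ephrins (−1.03), the integrin subunit Itga1 (−1.19) and the growth factor Vegfb (−0.75). Higher were Rnd1, a small GTPase that binds plexins (1.17), the VEGF receptor Flt1 (2.04) and the actin oxidase Mical2 (1.06). Adam10, Met and Rnd1 were called in the shHIRA II-labelled libraries (−1.86, −1.98 and 1.84) but not with shHIRA I (−0.20, −0.52 and 0.51). Mical2 was called with shHIRA I (1.46) but not in the shHIRA II-labelled libraries (0.67). The other partners named were called in both. Flt1 was near the floor, with a mean of 0.073 TPM over the 20 libraries. Of 28 genes of other guidance families (slits, netrins, repulsive guidance molecules, their receptors and related proteins) 19 were tested, and 3 were higher and 3 lower (median −0.078), beside 29.1% of all genes called in this contrast. Unc5b, a netrin receptor (1.14), Slit1 (1.67) and Ntn1 (0.45) were higher, and Robo2, a slit receptor (−1.05), Rgmb (−0.51) and its receptor Neo1 (−0.30) were lower. Slit1 was also near the floor, with a mean of 0.114 TPM.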

How the data were processed

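Poly(A) RNA had been made into stranded libraries, per the labels' protocols. The submitters' processing notes name kallisto, edgeR, bcl2fastq and the build mm10, per the labels; their versions, the annotation and the strand setting are not given in the sources used here. Files deposited by the authors were a table of estimated counts per gene and a table of TPM. Columns named as control were taken as parental, and shHIRA columns without a numeral as shHIRA I, the groups left over. Estimated counts were rounded and tested with edgeR 4.0.16 (R 4.3.3): TMM scaling, genes with at least 10 counts in at least 4 libraries, robust quasi-likelihood F test, group means over all 20 libraries, Benjamini-Hochberg over 13639 genes. This test was also run on simulated data with known changes. Deposited TPM served for levels between genes and class sums. CPM are TMM-scaled. Of the gene names, 27 are date-like, and none of them is a member. DESeq2 1.42.0 and limma 3.58.1 on log2(TPM + 1) and log2(TPM + 0.1) were alternatives, beside other filters, scalings, libraries left out, a replicate block, the mitochondrial share and parental cells as reference.

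The members and both further lists were chosen with earlier results of these data known. All members were accounted for. Those called in any contrast were named, with every library for members called in all 4 single contrasts and for others that the comparison turns on; the family leaders by TPM, members without a call and at most 10 genes of each further list were named too. Of the other marker lists, the endothelium list summed to 0.598 to 1.17 TPM in parental and 0.897 to 2.76 TPM in control shRNA libraries. It summed to 2.09 to 6.86 TPM with shHIRA I and 1.39 to 3.06 TPM in the shHIRA II-labelled libraries. The leukocyte list summed to 0.793 to 5.05 TPM over the libraries. Positions are from GENCODE M21 (GRCm38).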

Additional observations from a re-analysis of the deposited data

Results flagged for a closer look

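In 20 of the 235 sets of 4 libraries looked at (47 members in 5 groups), 1 library stood apart from the other 3 beyond Dixon's 95% critical value, where chance gives about 5% of sets. With shLuciferase, replicate 2 was high for Sema3c (76.3 CPM against 14.6 to 16.5), Sema3d (11.5 against 1.22 to 1.60), Plxnb3 (16.7 against 4.63 to 6.49), Sema5a (0.891 against 0.305 to 0.399) and Efna5 (39.9 against 35.5 to 36.2). Also with shLuciferase, replicate 3 was high for Efnb2 (1.73 CPM) and replicate 1 low for Plxnc1 (257 against 405 to 417). With shScramble, replicate 1 was low for Plxnc1 (226 against 390 to 412 CPM) and high for Epha2 (23.9 against 5.91 to 8.17) and Efnb3 (3.64), and replicate 2 was low for Sema4g (0.0568). With shHIRA I, replicate 2 was high for Epha10 (11.5 against 2.40 to 3.81 CPM) and replicate 3 for Epha5 (5.81 against 1.83 to 2.30) and Sema4c (41.3 against 33.7 to 34.7). In the shHIRA II-labelled libraries, replicate 1 was high for Efnb2 (3.3 CPM) and Sema4f (17.2 against 8.08 to 8.93), and replicate 3 for Epha10 (2.51). In parental cells, replicate 4 was high for Efnb3 (1.95 CPM) and Epha8 (0.0514, a single count), and replicate 1 for Plxnb2 (420 against 321 to 337). Leaving out shLuciferase 2 gave 18 members called in the knockdown contrast in place of 21.

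A second set of results stands out because the test of the difference between the hairpins passed for 18 members. On the log2 scale the shHIRA II-labelled libraries differed from shHIRA I by −2.76 for Sema6d, −2.50 for Epha4, −2.27 for Ephb6, −1.86 for Plxna2, −1.60 for Efna2, −1.58 for Efna4, −1.45 for Epha10, −1.25 for Plxnb3, −1.24 for Ephb4 and −1.06 for Plxnc1. The remaining differences were −0.998 for Plxna1, −0.98 for Efna3, −0.97 for Nrp1, −0.97 for Nrp2, −0.96 for Sema3b, −0.83 for Efnb1, −0.79 for Sema3f and 1.15 for Sema4a.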

How the results depend on the processing

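Of the 21 members called in the knockdown contrast, 8 kept the call under all 31 alternatives (Epha1, Epha2, Plxna2, Plxnb2, Plxnc1, Sema3a, Sema3c and Sema6d) and 13 lost it under at least 1. Of these 8, Epha1 and Sema3a had 10 counts in every shHIRA library but in only 1 shLuciferase and 0 shScramble libraries. The shHIRA groups could therefore have carried them into the test, and the overlap of Epha1 with Zyx remains. Plxna2 was at −0.062 in the shHIRA II-labelled libraries, where it was not called. Without 1 library the counts of calls ran from 14 to 21 for the knockdown contrast, 15 to 19 for shHIRA I, 18 to 28 for the shHIRA II-labelled libraries, 13 to 22 between the hairpins, 0 to 3 for transduction, 3 to 9 for all 4 single contrasts, 15 to 20 for the signalling partners and 3 to 9 for the other guidance families. It stayed at 0 between the control hairpins. For transduction and the contrasts with a Hira hairpin, the share of all genes called was counted in the main fit only. The count between the hairpins was 10 in a fit on those 2 groups, and the count in all 4 single contrasts was then 0; such fits hold fewer samples. For transduction the 2 calls became 1 without a filter, 5 with DESeq2, 0 with limma on log2(TPM + 1) and 1 with log2(TPM + 0.1), and for the other guidance families the 6 became 3 with the mitochondrial share as a covariate; the cause was not tested. With parental cells as reference Epha3 reversed to 0.067 in the knockdown contrast and Plxnb3 to 0.11 in the shHIRA II-labelled libraries, and 10 members were higher and 5 lower in the knockdown contrast.

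The labels do not say that a replicate number marks a shared batch, and pairing was not adopted because 17 of 40 same-number pairs, not all, had a correlation of deviations over 0.1 (median 0.067, −0.30 to 0.42; median −0.023 for other pairs). On average 13 of 20 libraries were closest to their own number, a hint from the data that numbers may share something. With the replicate block the counts were 23 for the knockdown contrast, 19 for shHIRA I, 25 for the shHIRA II-labelled libraries, 21 between the hairpins, 0 between the control hairpins, 3 for transduction and 8 in all 4 single contrasts (Epha2, Sema3a and Sema3c added). As above, no share of all genes stands beside the counts with a Hira hairpin, so a shift of the whole table cannot be told apart. Depth of 15 to 20.7 M counts limits the 9 members that lacked 10 counts in some libraries.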
